A study of Homo sapiens with 36 samples.

Results

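Hsa-Mir-345_5p, Hsa-Mir-577_5p, Hsa-Mir-589_5p and Hsa-Mir-769_5p are 4 miRNA guide strands that were detected in precipitates of tagged AGO2 from HEK293T cells. They were selected on the contrast of variant AGO2 with WT-AGO2 in the immunoprecipitate (IP), as the 5p guides without paralogue that the study singled out as lower with variants. Hsa-Mir-345_5p, Hsa-Mir-589_5p and Hsa-Mir-769_5p were chosen for D619N and F182del, and Hsa-Mir-577_5p for D619N. They make up 4 of the 135 mature miRNAs in the table analysed here. Since the IP values of the variants and of WT-AGO2 chose these guides, the values of that contrast are given as a description, without a test. The input, the IP of G604R against that of N359H, and IP over input in these same variants were not part of that choice and were tested.

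A miRNA is cut from a hairpin precursor as a duplex, of which one strand, the guide, is retained by an Argonaute protein while the passenger strand is discarded. AGO2 holds the 5′ end of the guide in its MID domain and the 3′ end in its PAZ domain, and presents the seed (bases 2 to 8) for pairing with target mRNAs. AGO2 is also the human Argonaute protein best known for cutting a fully paired target, through its PIWI domain. How much of a guide an AGO2 precipitate holds depends on binding and on how much of it the lysate contains, which is why the input libraries matter for reading the IP.

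The 4 guides are shown here because their seeds set which mRNAs AGO2 would address with them. All 4 were matched to RefSeq mature miRNAs (GRCh38.p14). Capitals mark the seed, and the sequences run 5′ to 3′.
Hsa-Mir-345_5p: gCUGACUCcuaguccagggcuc
Hsa-Mir-577_5p: uAGAUAAAauauugguaccug
Hsa-Mir-589_5p: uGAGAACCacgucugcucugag
Hsa-Mir-769_5p: uGAGACCUcuggguucugagcu

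Each seed belonged to 1 of the 2370 mature names in that RefSeq table, so none of the 4 shares its seed with another listed human miRNA. Hsa-Mir-589_5p and Hsa-Mir-769_5p had the same base at 5 of the 7 seed positions. The other pairs had the same base at 0 to 3 positions. Hsa-Mir-577_5p differed from the rest in composition, with a GC content of 28.6% against 63.6% for Hsa-Mir-345_5p and 54.5% for both Hsa-Mir-589_5p and Hsa-Mir-769_5p, where the median of all mature names was 52.2%. It was 21 bases long and the others 22. Hsa-Mir-345_5p began with G and the others with U, the first base of 36.8% of all mature names.

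The hairpins show where the guide lies in its precursor, with the guide in capitals. In each of the 4 it forms the 5′ arm.
MIR345 hairpin: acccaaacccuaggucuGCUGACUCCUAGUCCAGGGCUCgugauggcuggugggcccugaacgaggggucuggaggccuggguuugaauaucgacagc
MIR577 hairpin: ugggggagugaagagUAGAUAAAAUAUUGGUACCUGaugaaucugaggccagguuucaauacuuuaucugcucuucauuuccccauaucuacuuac
MIR589 hairpin: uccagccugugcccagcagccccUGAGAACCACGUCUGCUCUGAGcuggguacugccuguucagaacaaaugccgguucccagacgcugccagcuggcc
MIR769 hairpin: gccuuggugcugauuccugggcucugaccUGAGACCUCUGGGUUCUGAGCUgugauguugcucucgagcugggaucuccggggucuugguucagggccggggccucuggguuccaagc

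The 4 genes lie on 4 chromosomes, so they do not share a precursor transcript. The guide of MIR345 occupies chr14:100307876-100307897 on the plus strand, where GENCODE annotates no other gene. The guide of MIR577 occupies chr4:114656774-114656794 on the plus strand, inside an intron of UGT8, which encodes the enzyme that makes galactosylceramide for myelin. The guide of MIR589 occupies chr7:5495873-5495894 on the minus strand, inside an intron of FBXL18, an F-box gene. The guide of MIR769 occupies chr19:46018961-46018982 on the plus strand, inside an intron of CCDC61, a gene of centrosomes and cilia. The 3 host genes are transcribed in the direction of the miRNA. The opposite arms of the hairpins were not analysed here.

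The study used HEK293T, a line made from human embryonic kidney. The cells were transfected with Flag/HA-tagged WT-AGO2, with the AGO2 variants F182del, N359H, G604R or D619N, or with the Flag/HA-empty vector, in every case together with a GFP plasmid (pEGFP-C1). A sample of the cleared lysate was kept as input, and the rest was precipitated with anti-HA beads, so that the IP holds the tagged protein and its RNA. The 12 conditions had 3 replicates each, which gives 36 libraries. The cells kept their own untagged AGO2 in all groups, which the antibody does not recognise but which also holds miRNAs in the input. The labels do not say whether replicates came from separate cultures, so the tests measure only the spread between these libraries.

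The deposited unit is RPM, the reads of a miRNA relative to all reads of the library. Values above 0 came in whole steps, and the reads given below are inferred by taking 1 step as 1 read, which a read count adjusted by the authors could change. Total reads ranged from 16636 to 754009 in IP and from 9395 to 4162450 in the input, and mature miRNA reads from 174 to 30793 in IP and from 446 to 12040 in the input. In 3 of the inputs the depth was low and the miRNA share was high. Replicate 1 of G604R had 9395 reads with 4.75% mature miRNA, replicate 1 of D619N had 17118 with 4.77%, and replicate 1 of N359H had 148205 with 1.42%, whereas the other inputs held between 575821 and 4162450 reads. Fitted values that use these libraries are given with and without them. Of the 144 values of the 4 guides, 23 were 0, 10 came from 2 reads and none from 1 read. For values of 0 a limit of 3 reads is used below. Values of 1 read were also absent from all other miRNAs without paralogue, so a 0 may stand for 1 read. The true limit would then be higher than 3 reads, and the bounds drawn from it weaker. Intervals and limits cover counting error only.

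All 4 guides had reads in every IP library of WT-AGO2. There Hsa-Mir-769_5p, Hsa-Mir-577_5p, Hsa-Mir-345_5p and Hsa-Mir-589_5p took the ranks 22, 23, 30 and 56 among the 135 miRNAs by mean RPM. Hsa-Mir-769_5p measured 886, 320 and 84.0 RPM in replicates 1, 2 and 3, with a mean of 430 ± 412 RPM (SD, n = 3). Hsa-Mir-577_5p measured 529, 476 and 248 RPM, with a mean of 418 ± 149 RPM. Replicate 3 was the lowest for both, and the values of Hsa-Mir-769_5p spread far more widely.

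Hsa-Mir-345_5p measured 461, 311 and 80.3 RPM in the same libraries, with a mean of 284 ± 192 RPM. Hsa-Mir-589_5p measured 104, 165 and 11.0 RPM, with a mean of 93.2 ± 77.6 RPM. The last value of Hsa-Mir-589_5p rests on 3 reads. Replicate 3 of WT-AGO2 was thus the lowest library for all 4 guides, and mature miRNAs made up 2.23% of its reads against 11.0% in replicate 1 and 6.24% in replicate 2.

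With the empty vector none of the 4 guides had a read in any of the 3 IP libraries. Only 21 to 27 of the 135 miRNAs had a read in each of these libraries. The 4 guides lay below all WT-AGO2 libraries in RPM, as did 95 of the 135 miRNAs (70.4%). Each empty vector library held 174 to 202 mature miRNA reads, and 3 reads in such a library correspond to 62.4 to 166 RPM. Against the mean of that limit, 112 RPM per library, Hsa-Mir-769_5p was at least 3.84-fold higher in the IP of WT-AGO2, Hsa-Mir-577_5p at least 3.73-fold and Hsa-Mir-345_5p at least 2.54-fold. WT-AGO2 replicate 1 sets much of this, and without it the values were 1.81, 3.23 and 1.75. All these folds hold only as far as the limit of 3 reads does. Of the 3 WT-AGO2 libraries, 2 lay above the highest limit of a single empty vector library for Hsa-Mir-769_5p and Hsa-Mir-345_5p, and 3 for Hsa-Mir-577_5p. The mean of Hsa-Mir-589_5p lay under the limit, so for this guide no such fold can be given. The same was true of all 4 guides in D619N, of Hsa-Mir-345_5p, Hsa-Mir-589_5p and Hsa-Mir-769_5p in F182del, of Hsa-Mir-345_5p and Hsa-Mir-589_5p in G604R and of Hsa-Mir-589_5p in N359H. The limit is set per library. Whether the pooled reads of the empty vector libraries show a difference for these guides was not tested. In bulk libraries of this kind, fewer cells with a guide and fewer copies per cell cannot be told apart.

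D619N held the least of 3 of the 4 guides. Hsa-Mir-577_5p, the guide chosen for this variant alone, measured 69.9, 27.3 and 120 RPM, all below the lowest WT-AGO2 library at 248 RPM, as was found for 15 of the 135 miRNAs (11.1%). These values rest on 4, 2 and 2 reads. Hsa-Mir-769_5p measured 157, 27.3 and 0 RPM, Hsa-Mir-345_5p 87.4, 54.6 and 0 RPM, and Hsa-Mir-589_5p 52.4, 0 and 0 RPM. These 3 guides overlapped the WT-AGO2 libraries in RPM, because the lowest WT-AGO2 library was within their range. The means were 0.143 to 0.187 of those of WT-AGO2.

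**Figure D1:**
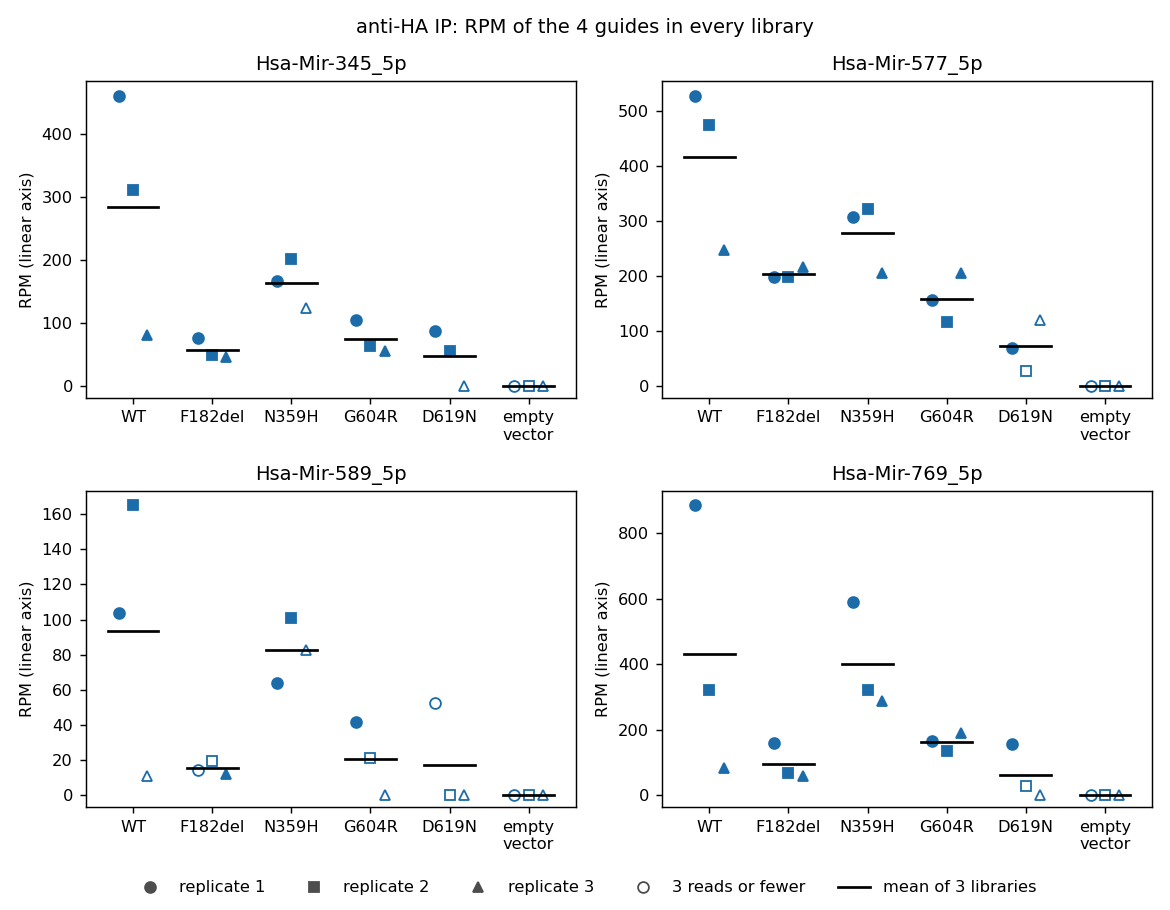
RPM (linear axis) of each guide in the 18 IP libraries, by transfected vector. Points are libraries, shaped by replicate number and open where they rest on 3 reads or fewer, and black lines are means. Hsa-Mir-577_5p of D619N lies between 27.3 and 120 RPM, below all WT-AGO2 libraries, and all values of the empty vector are 0.

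RPM depends on how much of a library is miRNA at all, and this differed between the IPs, with a mean of 9.25% ± 4.88 in D619N, 6.49% ± 4.39 in WT-AGO2 and 2.25% ± 0.46 in G604R (SD, n = 3). The share of a guide among the mature miRNA reads leaves this out. By this measure D619N lay below WT-AGO2 without overlap for all 4 guides, as it did for 34 of the 135 miRNAs (25.2%). The share of Hsa-Mir-577_5p was 0.0580, 0.0753 and 0.0995% in D619N and 0.481, 0.762 and 1.11% in WT-AGO2. Together the 4 guides accounted for 1.80 to 2.04% of the mature reads of WT-AGO2 in IP and for 0.0995 to 0.305% in D619N.

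Depth limits what can be read from single D619N libraries. At the mean share of WT-AGO2 the 3 D619N libraries together would hold 90.8 reads of Hsa-Mir-577_5p, 65.3 of Hsa-Mir-769_5p, 49.2 of Hsa-Mir-345_5p and 15.7 of Hsa-Mir-589_5p. They held 8, 11, 9 and 3. At the lowest share among the WT-AGO2 libraries the numbers would be 55.6, 43.6, 41.7 and 5.68, so that for Hsa-Mir-589_5p the difference to the lowest WT-AGO2 library comes down to a few reads. The library of D619N replicate 3 had 16636 reads, and the limit of 3 reads in it corresponds to 180 RPM.

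In F182del, Hsa-Mir-345_5p lay below WT-AGO2 by both measures. It measured 75.8, 49.4 and 45.1 RPM, below the lowest WT-AGO2 library at 80.3 RPM, and its share of the mature reads (0.155 to 0.186%) also lay below all WT-AGO2 libraries (0.360 to 0.498%). Hsa-Mir-769_5p measured 161, 69.2 and 58.4 RPM and Hsa-Mir-589_5p 14.2, 19.8 and 11.9 RPM, both overlapping WT-AGO2 in RPM and in share. Hsa-Mir-577_5p measured 199, 198 and 216 RPM, close together and below all WT-AGO2 libraries in RPM, while its share (0.475 to 0.892%) overlapped that of WT-AGO2 (0.481 to 1.11%). In F182del, 19 of the 135 miRNAs (14.1%) lay below WT-AGO2 without overlap in RPM and 14 (10.4%) in share. The order within F182del thus differed from that in D619N. Hsa-Mir-577_5p kept 0.843 of the mean WT-AGO2 share in F182del and 0.0988 in D619N.

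In N359H and G604R the guides were present in nearly all libraries. In N359H, Hsa-Mir-769_5p measured 589, 323 and 289 RPM, Hsa-Mir-577_5p 307, 323 and 206 RPM, Hsa-Mir-345_5p 166, 202 and 124 RPM, and Hsa-Mir-589_5p 64.0, 101 and 82.5 RPM. All 4 overlapped WT-AGO2 in RPM, and the share of Hsa-Mir-345_5p (0.197 to 0.318%) lay below that of WT-AGO2 without overlap, as did that of 13 of the 135 miRNAs (9.63%).

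In G604R, Hsa-Mir-769_5p measured 166, 136 and 189 RPM, Hsa-Mir-577_5p 156, 115 and 206 RPM, Hsa-Mir-345_5p 104, 63.0 and 55.6 RPM, and Hsa-Mir-589_5p 41.5, 21.0 and 0 RPM. Of the 4 guides, Hsa-Mir-577_5p alone lay below WT-AGO2 without overlap in RPM, as did 27 of the 135 miRNAs (20%). In share of the mature reads all 4 overlapped WT-AGO2, and the mean share of Hsa-Mir-769_5p was 0.743% ± 0.161 in G604R and 0.565% ± 0.219 in WT-AGO2.

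**Figure D2:**
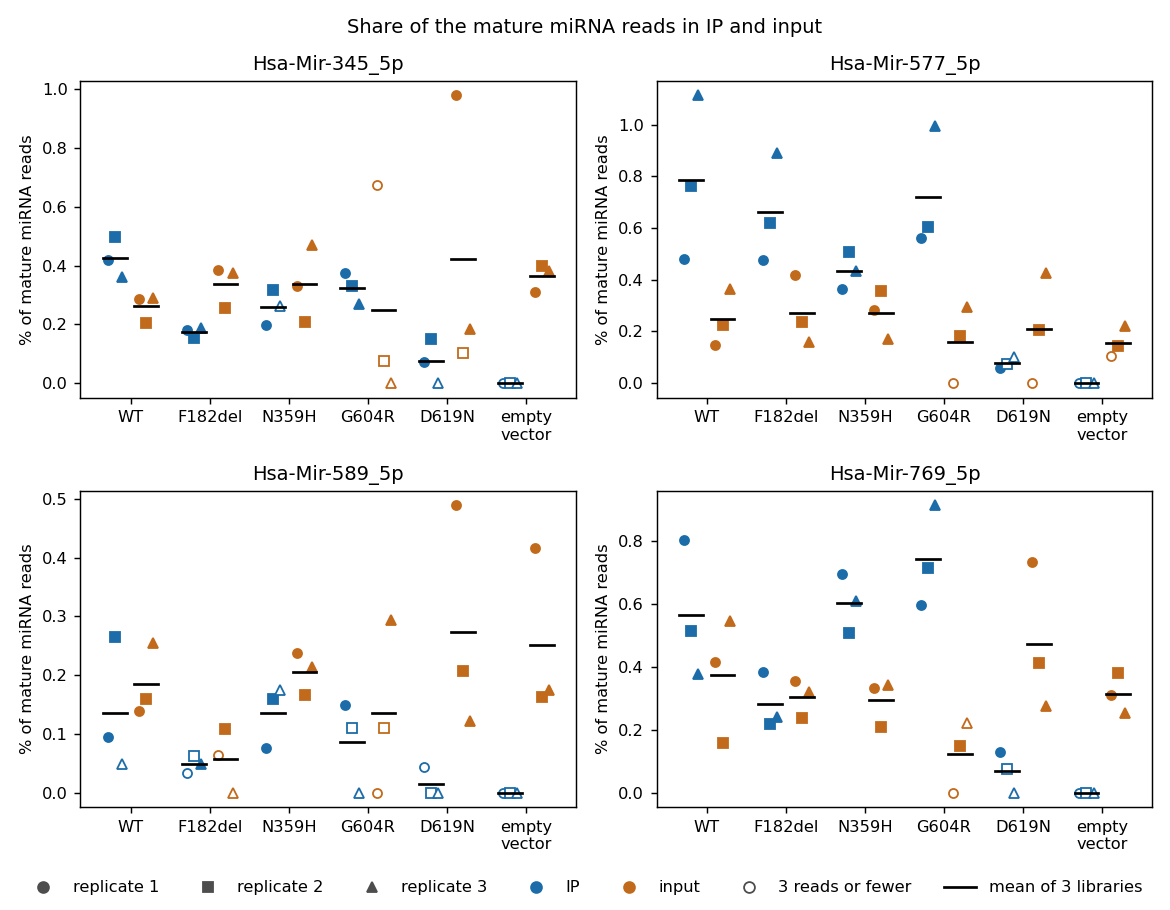
Share of each guide among the mature miRNA reads (%, linear axis) in IP (blue) and input (orange), by transfected vector. Points are libraries, open where they rest on 3 reads or fewer, and black lines are means of 3 libraries. For all 4 guides the IP shares of D619N lie below those of WT-AGO2, and the input shares of D619N overlap those of WT-AGO2.

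The order of the IP levels over the vectors can be read per guide from the mean RPM. Hsa-Mir-345_5p had the order WT-AGO2, N359H, G604R, F182del, D619N, and its only neighbours that did not overlap were N359H and G604R. Hsa-Mir-577_5p had the order WT-AGO2, N359H, F182del, G604R, D619N, in which all neighbours overlapped. Hsa-Mir-769_5p had the order WT-AGO2, N359H, G604R, F182del, D619N, with N359H and G604R apart. Hsa-Mir-589_5p had the order WT-AGO2, N359H, G604R, D619N, F182del, and again N359H and G604R were the neighbours that did not overlap. In RPM 41 of the 135 miRNAs (30.4%) lay lower in G604R than in N359H without overlap.

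The same contrasts were fitted with limma over all miRNAs after median-of-ratios scaling, which expresses a change relative to the other miRNAs of the comparison. Called means a log2 fold change beyond 1 in either direction with an adjusted p under 0.05. Since these contrasts chose the guides, their fold changes and counts are a description with no p, and nothing is read from a guide being past or short of the threshold. In D619N against WT-AGO2 the log2 fold change of Hsa-Mir-577_5p was -3.22 ± 0.38 (SE), and -3.51 to -2.67 over the alternatives. The count past the threshold was 1 of the 4 guides, beside 11.4% of all 123 miRNAs called lower (14 lower and 4 higher). The log2 fold changes of Hsa-Mir-345_5p, Hsa-Mir-769_5p and Hsa-Mir-589_5p were -3.96 ± 1.72, -4.35 ± 1.71 and -4.46 ± 1.73. They are larger than that of Hsa-Mir-577_5p but contain libraries at 0, so their size depends on the pseudocount. The median of all tested miRNAs was -1.18. Without D619N replicate 3, the library of 16636 reads, the log2 fold changes of Hsa-Mir-345_5p and Hsa-Mir-769_5p were -1.80 and -2.23.

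In F182del against WT-AGO2, the log2 fold change of Hsa-Mir-345_5p was -1.22 ± 0.32, and -2.01 to -1.08 over the alternatives. The count past the threshold was 1 of the 4 guides, beside 1.5% of 133 miRNAs called lower (2 lower and 6 higher). The others measured -0.92 ± 0.38 for Hsa-Mir-769_5p, -1.10 ± 0.80 for Hsa-Mir-589_5p and -0.16 ± 0.31 for Hsa-Mir-577_5p, where the median of all was 0.01. In N359H against WT-AGO2 the count was 0 of the 4 guides, beside 0% of 123 miRNAs called lower by limma (6 had an unadjusted p below 0.05). In G604R it was 0 of the 4, beside 4.07% of 123 called lower (5 lower and 1 higher). The log2 fold changes of the guides ranged from -0.70 to 0.32 in N359H and from -1.69 to 0.29 in G604R, with medians of all miRNAs at -0.56 and -0.34. The 4 contrasts share the same WT-AGO2 libraries, so their values are not independent of each other. Among the other guides without paralogue, 20 were tested in F182del with 3 called higher and 0 lower, and 19 were tested in D619N with 1 called higher and 3 lower. Their medians were 0.19 and -1.31, and -1.36 and -1.56 in N359H and G604R.

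The inputs show how much of each guide was in the lysate. There the guides were rare, with means in WT-AGO2 of 13.4 ± 9.99 RPM for Hsa-Mir-769_5p, 9.33 ± 6.21 RPM for Hsa-Mir-345_5p, 7.43 ± 1.78 RPM for Hsa-Mir-577_5p and 5.85 ± 2.07 RPM for Hsa-Mir-589_5p (SD, n = 3). With the empty vector the means were 9.28 ± 2.42, 10.6 ± 1.58, 4.53 ± 1.49 and 7.34 ± 4.25 RPM in the same order. The WT-AGO2 libraries differed from those of the empty vector in 0 of the 4 guides, as in 0% of 105 miRNAs tested (limma with Benjamini-Hochberg adjustment, 3 with an unadjusted p below 0.05). The log2 fold changes, WT-AGO2 over the empty vector, were -0.50 ± 0.30 for Hsa-Mir-345_5p, -0.38 ± 0.49 for Hsa-Mir-589_5p, 0.03 ± 0.43 for Hsa-Mir-769_5p and 0.47 ± 0.44 for Hsa-Mir-577_5p (SE), all with an adjusted p of 0.990 by limma.

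In the D619N input the 2 deep libraries lay near WT-AGO2. Hsa-Mir-577_5p measured 6.28 and 15.3 RPM in replicates 2 and 3, where WT-AGO2 measured 8.51, 5.37 and 8.41 RPM. Hsa-Mir-769_5p measured 12.6 and 9.84 RPM, where WT-AGO2 measured 23.7, 3.76 and 12.6 RPM. Hsa-Mir-345_5p measured 3.14 and 6.56 RPM and Hsa-Mir-589_5p 6.28 and 4.38 RPM, against 4.84 to 16.4 RPM and 3.76 to 7.90 RPM in WT-AGO2. Replicate 1 of D619N, with 17118 reads, stood at 467 RPM for Hsa-Mir-345_5p, 351 for Hsa-Mir-769_5p, 234 for Hsa-Mir-589_5p and 0 for Hsa-Mir-577_5p, values that rest on 8, 6, 4 and 0 reads.

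After scaling, 0 of the 4 guides differed between the D619N and WT-AGO2 inputs, as in 0% of 105 miRNAs (limma, 4 with an unadjusted p below 0.05). The log2 fold changes were -0.09 ± 0.69 for Hsa-Mir-345_5p, 0.20 ± 0.67 for Hsa-Mir-589_5p, 0.22 ± 0.49 for Hsa-Mir-769_5p and -1.03 ± 1.11 for Hsa-Mir-577_5p (SE), each with an adjusted p of 0.994 by limma. Without the shallow replicate 1 the values were -0.84, -0.21, -0.07 and 0.25 in the same order. With standard errors of 0.49 to 1.11 on the log2 scale, moderate changes in the lysate were not detectable at this depth.

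In the F182del input, Hsa-Mir-345_5p measured 11.1, 7.67 and 10.1 RPM, Hsa-Mir-577_5p 12.04, 7.12 and 4.35 RPM and Hsa-Mir-769_5p 10.2, 7.12 and 8.70 RPM, all within or near the range of WT-AGO2. Hsa-Mir-589_5p was the exception, at 1.85, 3.29 and 0 RPM, below all WT-AGO2 libraries (3.76 to 7.90 RPM), as were 3 of the 135 miRNAs (2.22%). The values of Hsa-Mir-589_5p rest on 2, 6 and 0 reads. In the IP of F182del Hsa-Mir-589_5p overlapped WT-AGO2 in RPM and in share. Its log2 fold change in the input was -1.49 ± 0.59 (SE), the second lowest of 114 miRNAs, but it failed the correction (unadjusted p = 0.0294, adjusted p = 0.516 by limma). None of the 4 guides was called in the F182del input, as in 0% of 114 (9 with an unadjusted p below 0.05), and the other 3 measured -0.21 to 0.26.

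In the N359H input the guides measured 6.01 to 47.2 RPM for Hsa-Mir-345_5p and Hsa-Mir-769_5p, 4.33 to 40.5 for Hsa-Mir-577_5p and 4.80 to 33.7 for Hsa-Mir-589_5p. The highest value of each was in the shallow replicate 1. None of the 4 was called, as in 0% of 106 miRNAs (limma, 2 with an unadjusted p below 0.05), with log2 fold changes of -0.32 to 0.17 that had standard errors of 0.44 to 0.52, and of -0.39 to 0.15 without replicate 1. In the G604R input the guides were at the limit of detection. Hsa-Mir-345_5p measured 319, 1.73 and 0 RPM, from 3, 2 and 0 reads. Hsa-Mir-577_5p measured 0, 4.32 and 6.95 RPM, Hsa-Mir-589_5p 0, 2.59 and 6.95 RPM and Hsa-Mir-769_5p 0, 3.46 and 5.21 RPM. In replicate 1 of G604R 1 read is worth 106 RPM, and the limit of 3 reads corresponds to 319 RPM. None of the 4 was called, as in 0% of 106 miRNAs (limma, 11 with an unadjusted p below 0.05), with log2 fold changes of -1.91 to -1.08 that had standard errors of 1.04 to 1.17. Without the shallow replicate 1 of G604R they were -2.32 for Hsa-Mir-345_5p, -0.92 for Hsa-Mir-769_5p, -0.14 for Hsa-Mir-577_5p and -0.11 for Hsa-Mir-589_5p. When WT-AGO2 replicate 1, 2 or 3 was left out of this comparison, 7, 11 and 10 miRNAs were called over the whole table, and still none of the 4 guides.

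**Figure D3:**
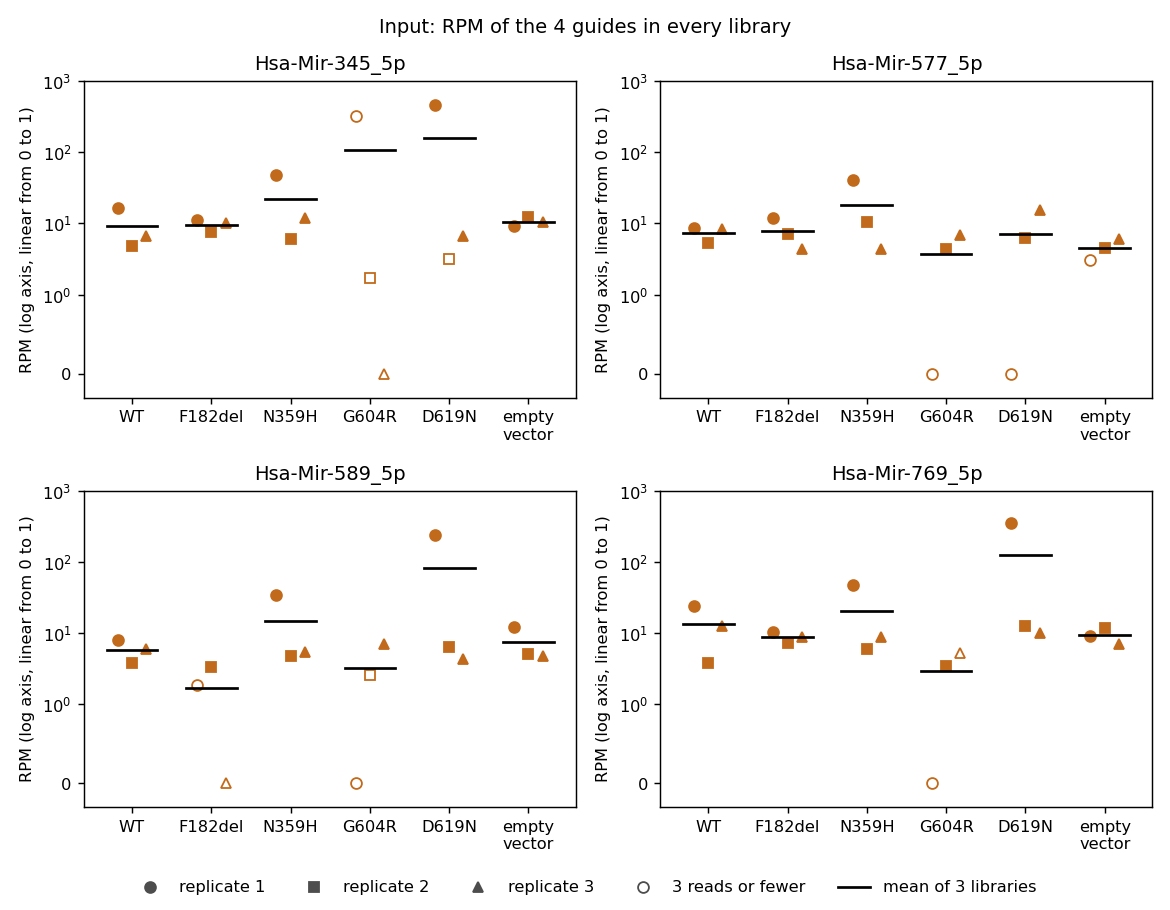
RPM of each guide in the 18 input libraries (log axis, linear between 0 and 1), by transfected vector. Points are libraries, shaped by replicate and open where they rest on 3 reads or fewer, and black lines are means. The values of WT-AGO2 lie between 3.76 and 23.7 RPM, and those over 100 RPM come from the 2 libraries with 9395 and 17118 reads.

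IP over input relates the precipitate to its own lysate, since an IP and the input of the same replicate come from 1 lysate. With WT-AGO2, Hsa-Mir-577_5p was 62.1, 88.6 and 29.5 times its input in RPM, and all mature miRNAs together were 19.3, 26.4 and 9.65 times theirs. Relative to all mature miRNAs, Hsa-Mir-577_5p was therefore 3.22, 3.36 and 3.06 times enriched, the narrowest range of the 4 guides. Its inputs held 14, 10 and 10 reads, with 95% exact intervals of the ratios in RPM of 35.9 to 116, 44.3 to 196 and 15.1 to 64.3. With such counting error the narrow range cannot be read as a trait of this guide. Relative to all mature miRNAs, Hsa-Mir-345_5p was 1.46, 2.44 and 1.24 times enriched, and Hsa-Mir-769_5p 1.94, 3.23 and 0.690 times. Hsa-Mir-589_5p was 0.680, 1.66 and 0.193 times enriched, below the ratio of all mature miRNAs in 2 of 3 lysates. The ratio of Hsa-Mir-589_5p in replicate 3, 1.86 in RPM, rests on 3 reads in IP and 7 in the input (95% exact interval 0.310 to 8.15).

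With D619N these ratios rest on few reads, and 7 of the 12 combinations of guide and lysate gave one. The IP values of D619N and WT-AGO2 in them also chose the guides, so the ratios are a description and not separate evidence. How many other miRNAs had such ratios in D619N was not tested. Hsa-Mir-577_5p was 4.35 times its input in replicate 2 (2 and 4 reads, 95% exact interval 0.393 to 30.3) and 7.85 times in replicate 3 (2 and 14 reads, 0.866 to 34.2), or 0.365 and 0.232 times relative to all mature miRNAs. In replicate 1 its input had no read. Hsa-Mir-769_5p was 0.178 and 0.183 times relative to all mature miRNAs in replicates 1 and 2, and had no IP read in replicate 3. Hsa-Mir-345_5p was 0.0741 times in replicate 1 and 1.46 times in replicate 2, the latter from 4 and 2 reads (the ratio in RPM was 17.4, interval 2.49 to 192). Hsa-Mir-589_5p had a ratio only in replicate 1, at 0.0889 times relative to all mature miRNAs from 3 and 4 reads. The replicate 1 values use the input of 17118 reads.

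With F182del, Hsa-Mir-345_5p was 6.82, 6.44 and 4.44 times its input in RPM, or 0.468, 0.610 and 0.498 times relative to all mature miRNAs. All 3 lay below the WT-AGO2 values of 1.24 to 2.44. The IP values of F182del and WT-AGO2 in these ratios also chose Hsa-Mir-345_5p, so this gap is a description and not separate evidence. How many other miRNAs showed such a gap in IP over input was not tested. Hsa-Mir-769_5p was 1.09, 0.919 and 0.752 times relative to all mature miRNAs, within the range of WT-AGO2. Hsa-Mir-577_5p was 1.13, 2.63 and 5.57 times, a wider range than in WT-AGO2. Hsa-Mir-589_5p was 0.527 and 0.569 times in replicates 1 and 2, also within the range of WT-AGO2, and its input had no read in replicate 3. The intervals of Hsa-Mir-589_5p are wide, from 0.879 to 91.8 and from 0.594 to 33.6 for the ratios in RPM of 7.67 and 6.01.

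**Figure D4:**
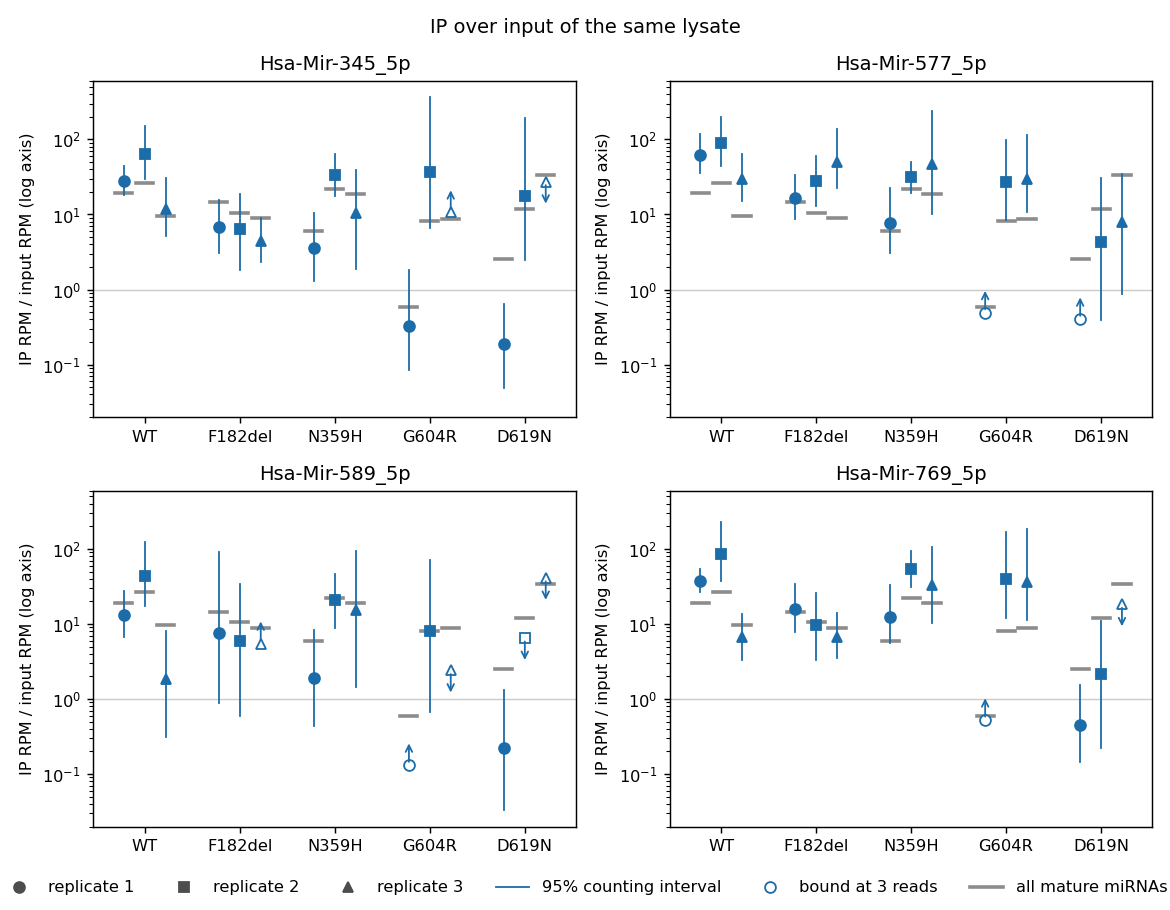
IP over input in RPM (log axis) for each guide, vector and lysate. Filled points are ratios with the 95% exact counting interval, open points with an arrow are bounds where 1 fraction had no read (set to 3 reads), and grey bars are the ratio of all mature miRNAs. Hsa-Mir-577_5p of WT-AGO2 lies at 3.06 to 3.36 times its grey bars. In D619N the ratios of replicates 2 and 3, from 2 IP reads each, lie at 0.365 and 0.232 times theirs. The IP values of D619N and WT-AGO2 chose this guide, so the gap is a description.

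IP over input was tested in N359H and G604R, which were not used in the choice. In N359H, Hsa-Mir-769_5p was 2.098, 2.45 and 1.78 times enriched relative to all mature reads. Its log2 fold change was 1.24 ± 0.38 (SE, adjusted p = 0.0288 by limma) in a fit that did not pair the fractions by lysate. Relative to all mature miRNAs the IP was higher in 3 of 3 lysates. This 1 call of 4 stands beside 11.7% of 120 miRNAs called, 4 higher and 10 lower, and the fold change took position 94 of 120 counted from the lowest. Hsa-Mir-577_5p measured 0.91 ± 0.44 (adjusted p = 0.153 by limma), Hsa-Mir-345_5p -0.13 ± 0.49 (0.900) and Hsa-Mir-589_5p -0.45 ± 0.71 (0.693), and the median of all was -0.31. The call of Hsa-Mir-769_5p held with the lysate as a block and without the shallow input replicate 1, where its log2 fold change was 1.36 and those of Hsa-Mir-577_5p, Hsa-Mir-345_5p and Hsa-Mir-589_5p were 0.99, -0.09 and -0.34. It was lost without IP replicate 1 (adjusted p = 0.0766), IP replicate 2 (0.0597) or input replicate 2 (0.101), by limma. With the block 18 of 120 miRNAs were called, and without the shallow input 13 of 117. With RPM as deposited, where the median of all miRNAs rose to 2.96, Hsa-Mir-345_5p and Hsa-Mir-577_5p were also called higher in IP. In that fit 49 of 114 miRNAs were called, all higher.

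In G604R the ratios of the deep libraries were high for the same guide. Hsa-Mir-769_5p was 39.5 and 36.3 times its input in replicates 2 and 3 (95% exact interval of the latter 11.4 to 185, from 34 and 3 reads), or 4.84 and 4.15 times relative to all mature miRNAs. Hsa-Mir-577_5p was 26.7 and 29.6 times its input, or 3.28 and 3.39 times relative to all mature miRNAs, where WT-AGO2 had 3.06 to 3.36. Its inputs held 5 and 4 reads, and the intervals of the ratios in RPM were 8.56 to 98.1 and 10.6 to 114. They are too wide to show that the ratios of Hsa-Mir-577_5p in G604R and WT-AGO2 are alike. In replicate 1, whose input had 9395 reads, neither guide had an input read. The log2 fold changes were 3.64 ± 1.29 for Hsa-Mir-769_5p, 3.33 ± 1.40 for Hsa-Mir-577_5p, 2.36 ± 1.51 for Hsa-Mir-345_5p and -0.18 ± 1.83 for Hsa-Mir-589_5p (SE). None passed the test by limma (adjusted p from 0.128 to 0.942), beside 8.57% of 105 miRNAs called, all 9 of them higher in IP.

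Without the shallow input the log2 fold change of Hsa-Mir-769_5p in G604R was 2.06 with an adjusted p of 0.0209 by limma, which passes the test. Those of Hsa-Mir-345_5p, Hsa-Mir-577_5p and Hsa-Mir-589_5p were then 3.53, 1.64 and -1.59 and did not pass. In this fit, chosen after seeing the data, 10 of 102 miRNAs were called, all higher in IP. With the lysate as a block 0 of the 105 miRNAs were called in G604R, while in N359H the count was 18 in place of 14. With RPM as deposited Hsa-Mir-577_5p and Hsa-Mir-769_5p were called higher in the G604R IP, where the median of all miRNAs was 1.94 in place of 0.48. There 27 of 103 miRNAs were called, all higher in IP.

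The difference between these variants was tested directly. In RPM all 4 guides were lower in the IP of G604R than in that of N359H without overlap, as were 41 of the 135 miRNAs (30.4%). For Hsa-Mir-577_5p the gap was small, from 206.2 RPM in N359H to 205.7 RPM in G604R. In share of the mature reads 0 of the 4 guides lay lower in G604R without overlap, beside 5 of the 135 miRNAs (3.70%). By this measure Hsa-Mir-577_5p lay higher in G604R (0.560 to 0.997%) than in N359H (0.363 to 0.509%) without overlap, as did 16 of the 135 (11.9%). After scaling none of the 4 was called, beside 0.885% of 113 miRNAs, and Hsa-Mir-345_5p, Hsa-Mir-577_5p and Hsa-Mir-769_5p measured 0.16 ± 0.49, 0.51 ± 0.35 and 0.11 ± 0.32 (log2, G604R over N359H, SE) with adjusted p from 0.626 to 0.943 by limma. Hsa-Mir-589_5p measured -2.02 ± 1.65 (adjusted p = 0.714 by limma), with 1 of the G604R libraries at 0. The sign of the first 3 thus depended on the scaling. With RPM as deposited they measured -1.16, -0.82 and -1.22, beside a median of -1.17 for all miRNAs, and Hsa-Mir-769_5p was called. In that fit 31 of 113 miRNAs were called, all lower in G604R.

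IP over input differed between G604R and N359H by a log2 value of 2.33 ± 1.58 for Hsa-Mir-345_5p, 2.22 ± 1.49 for Hsa-Mir-577_5p, 2.202 ± 1.37 for Hsa-Mir-769_5p and -0.01 ± 2.04 for Hsa-Mir-589_5p (SE). None of these interactions passed (adjusted p from 0.521 to 0.997 by limma), as in 0% of 124 miRNAs tested (13 with an unadjusted p below 0.05), and the median of all was 0.56. Without the shallow inputs of both variants the values were 3.89, 0.66, 0.72 and -1.42 in the same order, beside a median of 0.69, and none passed (adjusted p from 0.253 to 0.772 by limma). The standard errors of over 1 on the log2 scale mean that differences of several-fold would not have been detectable at this depth.

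**Figure D5:**
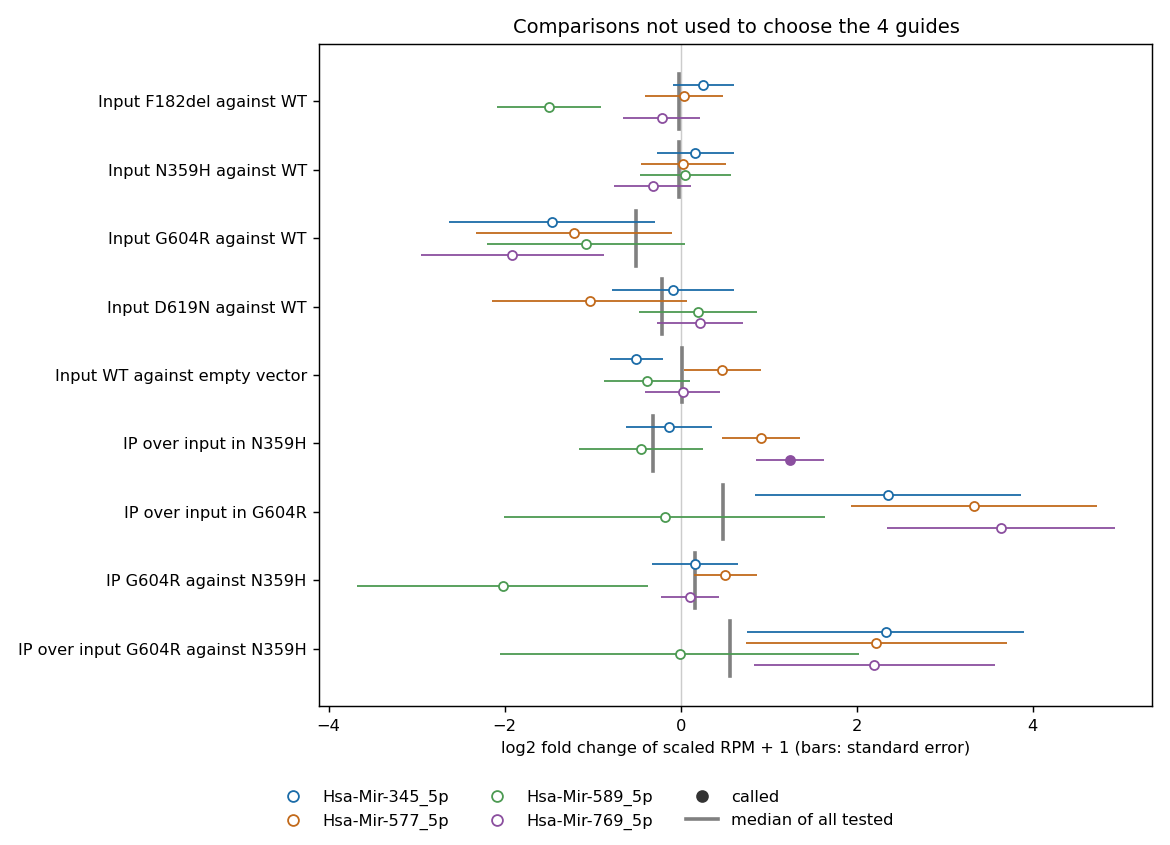
Log2 fold changes of scaled RPM + 1 (points, bars are standard errors) of the 4 guides in the 9 comparisons that did not choose them, with the median of all tested miRNAs as a grey line. The single filled point is Hsa-Mir-769_5p in IP over input of N359H at 1.24, and the widest bars belong to comparisons with the G604R input.

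Across the 15 IP libraries of WT-AGO2 and the variants, Hsa-Mir-345_5p and Hsa-Mir-769_5p were each other's nearest pattern among the 134 other miRNAs (Pearson r = 0.95 of log2 scaled RPM). The next most alike for both were Hsa-Mir-95-P2_3p (r = 0.94 with Hsa-Mir-345_5p and 0.93 with Hsa-Mir-769_5p) and Hsa-Mir-17-P4d_5p (r = 0.94 and 0.92). For Hsa-Mir-577_5p the 3 most alike were Hsa-Mir-130-P3b_5p* (r = 0.96), Hsa-Mir-30-P2a_5p (r = 0.87) and Hsa-Mir-221-P1a_3p (r = 0.86), where an asterisk marks a passenger strand. For Hsa-Mir-589_5p they were Hsa-Mir-744_5p (r = 0.83), Hsa-Mir-148-P1_5p* (r = 0.69) and Hsa-Mir-769_5p (r = 0.60). The points share libraries and depth, and the same IP values chose the guides.

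Much of this likeness came from the D619N libraries. Over the other 12 libraries r fell to 0.50 for Hsa-Mir-345_5p with Hsa-Mir-769_5p and to -0.52 for Hsa-Mir-345_5p with Hsa-Mir-95-P2_3p. It was 0.82 for Hsa-Mir-577_5p with Hsa-Mir-30-P2a_5p, the pair that changed least, and 0.57 for Hsa-Mir-589_5p with Hsa-Mir-744_5p. Between Hsa-Mir-577_5p and the other 3 guides r was 0.42 to 0.63 over 15 libraries and -0.58 to -0.09 without D619N.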

How the data were processed

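Small RNA was sequenced from the input and the anti-HA IP of transfected HEK293T cells (TruSeq Small RNA, single-end reads). According to the study's methods the authors processed the reads with sRNAbench, with default settings apart from a filter on mean quality, and annotated them with MirGeneDB, and per the labels the build was GRCh38. The deposited values are RPM of all reads of a library for 135 mature miRNAs. How reads that fit several miRNAs were shared is not given in the sources used here. Single reads hardly occurred among miRNAs without paralogue (0 values of 1 read and 115 of 2 reads in 30 rows), and the table's own name holds the terms minExpr1 and RCadj, by their wording a minimum and a read-count adjustment, without further detail. No count model was fitted.

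The members and lists were chosen with earlier results of these data known. The named miRNAs are the 4 guides and, for each, the 3 miRNAs with the highest Pearson r of log2(scaled RPM + 1) over the 15 IP libraries with AGO2. All guides without paralogue (24 in the table) serve as background. RPM were scaled by median of ratios, from miRNAs detected in every library compared. A miRNA was tested if its scaled RPM reached 1 in 2 of 3 libraries of a group. The test was limma 3.58.1 in R 4.3.3 (lmFit, eBayes with trend) on log2(RPM + 1). On this scale the size of a change depends on the pseudocount where libraries are at 0. For Hsa-Mir-589_5p in IP of D619N against WT-AGO2 it was -4.46, and -2.34 with 10 RPM as the pseudocount. P-values were adjusted by Benjamini-Hochberg over all tested miRNAs. Calls required an adjusted p under 0.05 together with a log2 fold change beyond 1 in either direction. The fits were tried on simulated data, with large changes placed only in miRNAs above a minimum mean RPM. This does not cover guides at the detection limit. Intervals of IP over input are exact (Clopper-Pearson) at 95% from the inferred reads. Depth, from 9395 to 4162450 reads per library, and the detection limit of 3 reads set the precision.

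Alternatives were 10 RPM as the pseudocount, all rows tested without a filter, the unscaled RPM as deposited, the replicate as a block, each library left out and, chosen after seeing the data, leaving out the shallow replicate 1 inputs of N359H, G604R and D619N. Both fractions of a replicate derive from 1 lysate and are paired, which the main fits left out and the block took into account. Between vectors, deviations from the group means correlated above 0.1 in all 3 same-numbered pairs for F182del against WT-AGO2 in IP (r = 0.34, 0.18 and 0.11) and in the input (0.21, 0.28 and 0.24), for N359H against WT-AGO2 in the input (0.19, 0.13 and 0.13) and for WT-AGO2 against the empty vector in the input (0.34, 0.18 and 0.30). Sequences are from RefSeq and the annotation of host genes from GENCODE, both on GRCh38.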

Additional observations from a re-analysis of the deposited data

How the results depend on the processing

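The number of the 4 guides called was 0 under every alternative for the 5 input comparisons, for IP of N359H and of G604R against WT-AGO2, and for the difference in IP over input between G604R and N359H. In the other comparisons it moved, where the counts for IP against WT-AGO2 are a description, since these contrasts chose the guides. With RPM as deposited it was 0 in place of 1 for F182del in IP, 0 in place of 1 for D619N in IP, 3 in place of 1 for IP over input of N359H, 2 in place of 0 for IP over input of G604R and 1 in place of 0 for G604R against N359H in IP. Over all miRNAs, 2 of 133, 0 of 123, 49 of 114, 27 of 103 and 31 of 113 were then called, in the same order. A pseudocount of 10 RPM gave 3 for D619N in IP, beside 28 of 123 miRNAs called, and 1 for IP over input of G604R, beside 15 of 105. Leaving out the shallow inputs gave 1 for IP over input of G604R, beside 10 of 102. Leaving out single libraries gave 0 to 2 for F182del, 1 to 3 for D619N, 0 to 1 for IP over input of N359H and 0 to 1 for that of G604R. The highest counts for F182del, D619N and G604R stood beside 10 of 132, 23 of 122 and 10 of 102 miRNAs called. The 1 call in N359H stood beside 12 of 113 to 23 of 120. The replicate block left the number of guides called as it was in all 13 comparisons, paired or not. The number of miRNAs called over the whole table with the block was 9 in place of 8 for F182del in IP, 18 in both fits for D619N, 0 in place of 6 for G604R, and 1 in place of 0 for the inputs of D619N and of WT-AGO2 against the empty vector.

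The number called over the whole table depended on the setting. Over all alternatives it ranged from 2 to 10 for F182del, 0 to 14 for G604R and 0 to 29 for D619N in IP, from 3 to 49 for IP over input of N359H (49 with RPM as deposited, 3 without input replicate 2), from 0 to 27 for IP over input of G604R and from 0 to 31 for G604R against N359H in IP (31 with RPM as deposited, all lower). Without WT-AGO2 replicate 1, 2 or 3 in the input it was 7, 11 and 10 for G604R in place of 0, without WT-AGO2 replicate 3 it was 5 for D619N in place of 0, and it was 3 for N359H in IP without WT-AGO2 replicate 2 or 3 in place of 0.

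Of 408 refitted log2 fold changes of the guides outside the IP contrasts with WT-AGO2, 53 turned sign. With RPM as deposited, Hsa-Mir-345_5p turned to 0.052 in the G604R input, 1.41 in the D619N input, 3.31 in IP over input of N359H, -1.16 in IP of G604R against N359H and -0.39 in the difference of IP over input. Hsa-Mir-577_5p turned to -0.0032 in the F182del input and -0.82 in IP of G604R against N359H, Hsa-Mir-589_5p to 2.91 and 1.68 in IP over input of N359H and G604R, and Hsa-Mir-769_5p to 0.34 in the N359H input and -1.22 in IP of G604R against N359H. A pseudocount of 10 RPM gave 0.043 for Hsa-Mir-345_5p in the D619N input. Leaving out the shallow inputs gave -0.013 for Hsa-Mir-577_5p and -0.030 for Hsa-Mir-589_5p in the N359H input, and 0.25, -0.21 and -0.065 for Hsa-Mir-577_5p, Hsa-Mir-589_5p and Hsa-Mir-769_5p in the D619N input. With RPM as deposited the median of all miRNAs moved too, for example from -0.21 to 1.05 in the D619N input and from -0.31 to 2.96 in IP over input of N359H. The cause of the other changes was not tested.

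Leaving out single libraries, the fold changes that turned ranged in the inputs from -0.30 to 0.35 (Hsa-Mir-577_5p) and -0.69 to 0.12 (Hsa-Mir-769_5p) for F182del, from -0.084 to 0.41 (Hsa-Mir-345_5p), -0.22 to 0.31 (Hsa-Mir-577_5p) and -0.061 to 0.22 (Hsa-Mir-589_5p) for N359H, from -0.84 to 0.47 (Hsa-Mir-345_5p), -2.05 to 0.25 (Hsa-Mir-577_5p), -0.21 to 0.49 (Hsa-Mir-589_5p) and -0.24 to 0.57 (Hsa-Mir-769_5p) for D619N, and from -0.63 to 0.057 (Hsa-Mir-589_5p) and -0.25 to 0.46 (Hsa-Mir-769_5p) for WT-AGO2 against the empty vector. They ranged from -0.42 to 0.13 for Hsa-Mir-345_5p in IP over input of N359H, from -1.59 to 1.19 for Hsa-Mir-589_5p in that of G604R, from -1.35 to 1.51 for Hsa-Mir-589_5p in the difference of both, and in IP of G604R against N359H from -0.00076 to 0.32 for Hsa-Mir-345_5p and from -0.081 to 0.34 for Hsa-Mir-769_5p. Depth limits the G604R input above all, where 0 to 5 reads stand behind each value.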
